A study of Mus musculus with 12 samples.

Results

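Ligated hearts given liproxstatin-1 (Lip-1) before coronary ligation differed from hearts after ligation alone in many genes, mostly by small amounts. Most listed genes of the aryl hydrocarbon receptor, cholesterol synthesis and the lysosome were higher than after ligation alone. Most listed cell cycle and collagen genes were lower, and so were smaller shares of the elastic fibre and fatty acid oxidation genes. In broader lists, smaller shares of the lysosome and cell cycle genes were called. Most inflammatory, heart muscle and core ferroptosis genes did not pass the test, although 20.5% of the ferroptosis list rose, against 3.05% of all genes. The comparison sets the 3 samples of the group Lip-1+MI against the 3 samples of the group MI, that is 6 of the 12 samples of the series, chosen by their titles and table columns without regard to any measured value, over all 16910 genes that could be tested.

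The labels describe all animals as male wild type C57BL/6J mice of 6 to 8 weeks, and the tissue as ventricle. MI (myocardial infarction) was produced by tying off the left anterior descending coronary artery, with no compound. Lip-1+MI received Lip-1 at 3 mg per kg per day and Fer-1+MI received ferrostatin-1 (Fer-1) at 1 mg per kg per day, both begun 24 h ahead of the same ligation. Sham is the fourth group, with neither compound. No vehicle or pretreatment of MI is recorded in the sample details used here. The compound, its vehicle and the dosing therefore cannot be told apart in comparisons with MI. Every group held 3 samples, the labels do not say that the 3 came from separate animals, and the time from ligation to collection has no entry among the labels read here. The p-values therefore measure how far samples spread within their groups, which may be technical. Each gene has 1 estimate of this spread for all 4 groups, so Sham and Fer-1+MI enter it too.

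Ferroptosis is a form of cell death in which iron drives the peroxidation of polyunsaturated membrane lipids. Lip-1 and Fer-1 are aromatic amines that trap the lipid radicals that carry this chain reaction. In the infarcted heart, cardiomyocytes die, leukocytes enter, and fibroblasts multiply and lay down collagen. Several of the gene sets below are read out through sensors: the aryl hydrocarbon receptor (AHR) binds aromatic ligands and switches on detoxifying enzymes, SREBP factors switch on sterol and fatty acid synthesis when membrane sterol is low, and TFEB and its relatives switch on lysosomal genes.

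The libraries held 45.5 to 60.8 M counts each, 46.7 to 60.7 M in MI and 59 to 60.8 M in Lip-1+MI (M, 1e6 counts). In a principal component analysis of the 6 samples, the first component took 25.1% of the variance and placed MI at -33.6, -8.42 and -29 and Lip-1+MI at 21.4, 25.1 and 24.6, so the groups did not overlap and MI 2 lay nearest to Lip-1+MI. Mitochondrially encoded genes took 5.11 to 5.54% of counts in MI and 5.92 to 6.31% in Lip-1+MI, and the part of this difference in the results below was not tested. Gene identifiers in the tables carry the rat prefix ENSRNOG, although the labels say mouse, and no genome build was given in the sources used here. Heart muscle genes were abundant, with Myh6 (alpha myosin heavy chain) at 6760 to 10370 counts scaled to library size (CPM) over the 12 libraries and Actc1 (cardiac actin) at 7563 to 10400 CPM. Myoglobin (Mb) was at 17.8 to 37.0 CPM, the 7 erythroid genes summed to 13.7 to 26.2 CPM and the 11 neutrophil genes to 4.01 to 5.95 CPM, and 2 of the 10 lymphocyte identifiers were at 0 in all libraries. Whether such levels fit a whole ligated ventricle was not tested, and the groups are named below as the libraries are labelled.

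A total of 1031 genes (6.1% of those tested) differed between Lip-1+MI and MI at an adjusted p under 0.05 in edgeR's quasi-likelihood test, 515 of them higher (3.05%) and 516 lower (3.05%) with Lip-1. A gene is said to rise or fall below only where it passed this threshold. Counts of list members below are to be read beside these shares. The lists were chosen with earlier results of these data known, so the shares of all genes are not an independent baseline for them. For Fer-1+MI against MI the shares of all genes were 2.29% higher and 3.07% lower. For Lip-1+MI against Fer-1+MI they were 1.74% higher and 1.41% lower. The changes were small: 24 genes rose and 14 fell by 2-fold or more, and the median size among called genes was 0.34 on the log2 scale. Over all tested genes the median log2 fold change was -0.00583. The count was 661 without MI 3, 687 without Lip-1+MI 1 and 673 without Lip-1+MI 3, and 466 genes were called also without each of the 6 samples in turn.

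**Figure D1:**
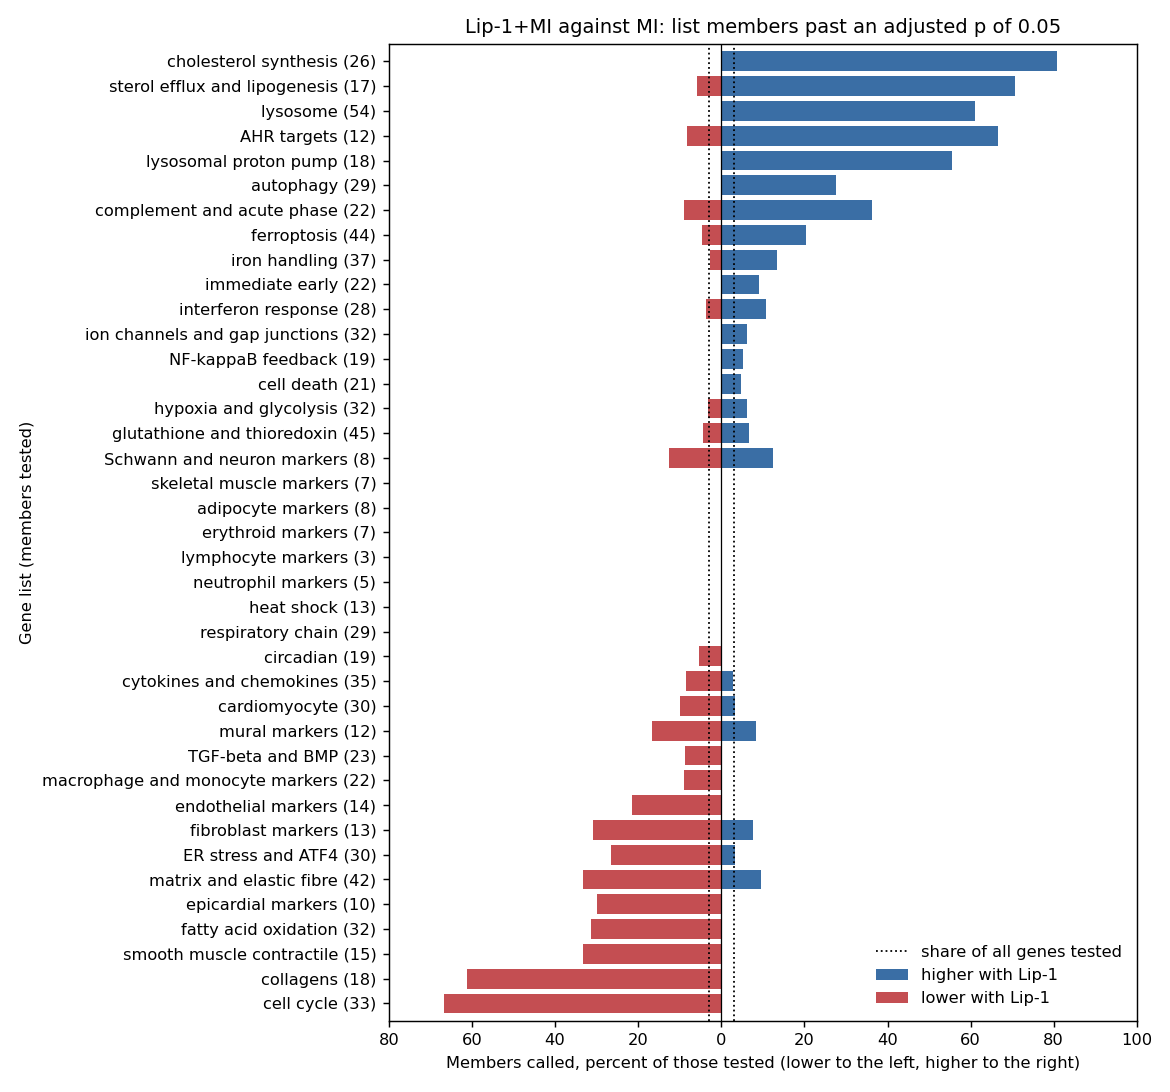
Share of the tested members of each of 39 gene lists that passed an adjusted p of 0.05 in Lip-1+MI against MI (x axis, percent; higher to the right, lower to the left), with the number tested in brackets and the share over all genes, 3.05% in each direction, as dotted lines. Cholesterol synthesis (21 of 26 higher) and cell cycle (22 of 33 lower) lie at the ends, and no member of the respiratory chain list was called. The lists were chosen with earlier results of these data known.

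Genes that the AHR is known to switch on rose, some of them steeply. Of 12 tested members of the AHR list, 8 rose (66.7%, against 3.05% of all genes), 1 fell, and their median log2 fold change was 0.494. Promoter sequence is shown for Cyp1a1 and Ahrr because they carry the short core that the AHR and its partner ARNT are known to bind, GCGTG, in capitals below on either strand. Each line gives the 150 bases before the transcript start of the mouse gene in RefSeq's table (GRCm38.p6), 5′ to 3′ in the direction of the gene.
Cyp1a1, chr9:57697463-57697612, plus strand: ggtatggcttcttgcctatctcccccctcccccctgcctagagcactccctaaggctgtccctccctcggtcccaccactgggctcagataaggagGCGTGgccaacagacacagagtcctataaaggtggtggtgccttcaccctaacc
Ahrr, chr13:74292332-74292481, minus strand: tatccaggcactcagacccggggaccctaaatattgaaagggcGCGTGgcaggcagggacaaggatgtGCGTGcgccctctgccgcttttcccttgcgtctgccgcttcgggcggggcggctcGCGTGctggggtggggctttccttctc
In the 250 bases before the start, GCGTG on either strand stood in 7 of the 9 listed genes with a RefSeq promoter, and in 4 of the 6 of them that rose (Ahrr, Cyp1a1, Cyp1b1 and Tiparp), against 30.9% of 27025 mouse genes. The sequences are of the labelled species and not of the rat gene models in the tables, and a match is a description of letters.

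Cyp1a1, the cytochrome P450 used as the standard readout of AHR activity, measured 0.398, 1.14 and 0.639 CPM in MI 1, 2 and 3, and 10.3, 13.5 and 16.2 CPM in the Lip-1+MI samples 1, 2 and 3. The Lip-1 libraries were all far above every MI library, and Sham (0.526, 1.13 and 0.751 CPM) and Fer-1+MI (0.795, 0.742 and 0.453 CPM) lay with MI. The log2 fold change was 4.16 ± 0.32 (SE; adjusted p = 1.66e-06), a 17.9-fold difference. In the files the gene (ENSRNOG00000019500) is placed on chromosome 8, 62472095 to 62478147.

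Aldh3a1, an aldehyde dehydrogenase of the same battery, was at 1.68, 0.916 and 1.04 CPM in MI and 11.4, 14.4 and 15.9 CPM in Lip-1+MI. Its lowest Lip-1 library was several times its highest MI library, and the log2 fold change was 3.53 ± 0.26 (adjusted p = 5.18e-07). Ahrr, the repressor that feeds back on the AHR, went from 4.91, 4.53 and 4.6 CPM to 12.4, 13.7 and 16.7 CPM, a log2 fold change of 1.61 ± 0.15 (adjusted p = 3.75e-06), again with no overlap. Nqo1, a quinone reductase shared between AHR and NRF2 control, was at 34.7, 34.8 and 31.4 CPM in MI and 81.8, 91.6 and 88.9 CPM in Lip-1+MI. Its 3 libraries per group lay close together and apart from each other, with a log2 fold change of 1.38 ± 0.067 (adjusted p = 6.05e-10).

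Cyp1b1, the P450 of mesenchymal cells, started from a far higher level, 428, 469.6 and 472 CPM in MI, and reached 825, 842 and 974 CPM with Lip-1. All Lip-1 libraries were above all MI libraries and the log2 fold change was 0.95 ± 0.072 (adjusted p = 1.16e-06). Smaller rises were measured for Ugt1a6, a glucuronosyltransferase (0.37, adjusted p = 0.00248; its gene model overlaps Dnajb3), for Tiparp, which ADP-ribosylates the receptor (0.23, adjusted p = 0.0331), and for Nfe2l2, which encodes NRF2 (0.16, adjusted p = 0.0447). The Tiparp call was lost without MI 1, MI 3, Lip-1+MI 1 or Lip-1+MI 3, in the fit of the 6 samples alone or on the deposited FPKM values, and the Nfe2l2 call was lost in 16 of 23 alternatives. The receptor gene itself, Ahr, moved the other way, from 25.3, 22.6 and 21.1 CPM to 18.8, 14 and 19.2 CPM, with the lowest MI library above the highest Lip-1 library. Its log2 fold change was -0.41 ± 0.10 (adjusted p = 0.0231), a call lost without MI 1 or Lip-1+MI 2, in the fit of the 6 samples alone or on the deposited FPKM values.

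In the direct test against Fer-1+MI, Cyp1a1 (4.34 ± 0.33, adjusted p = 1.52e-06), Aldh3a1 (3.25 ± 0.25, 7.62e-07), Ahrr (2.02 ± 0.16, 3.78e-07), Nqo1 (0.96 ± 0.065, 7.59e-08) and Cyp1b1 (0.83 ± 0.072, 4.54e-06) were higher with Lip-1. In all, 6 of the 12 AHR members were higher in Lip-1+MI than in Fer-1+MI, against 1.74% of all genes, and 0 were lower. Fer-1+MI set against MI gave 1 rise among the 12, Nqo1 (1.38 ± 0.067 with Lip-1 and 0.42 ± 0.066 with Fer-1, adjusted p = 0.000765), against 2.29% of all genes. The doses were 3 and 1 mg per kg per day, so compound and dose cannot be told apart in any comparison of the treated groups, and both comparisons with MI share the 3 MI samples.

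**Figure D2:**
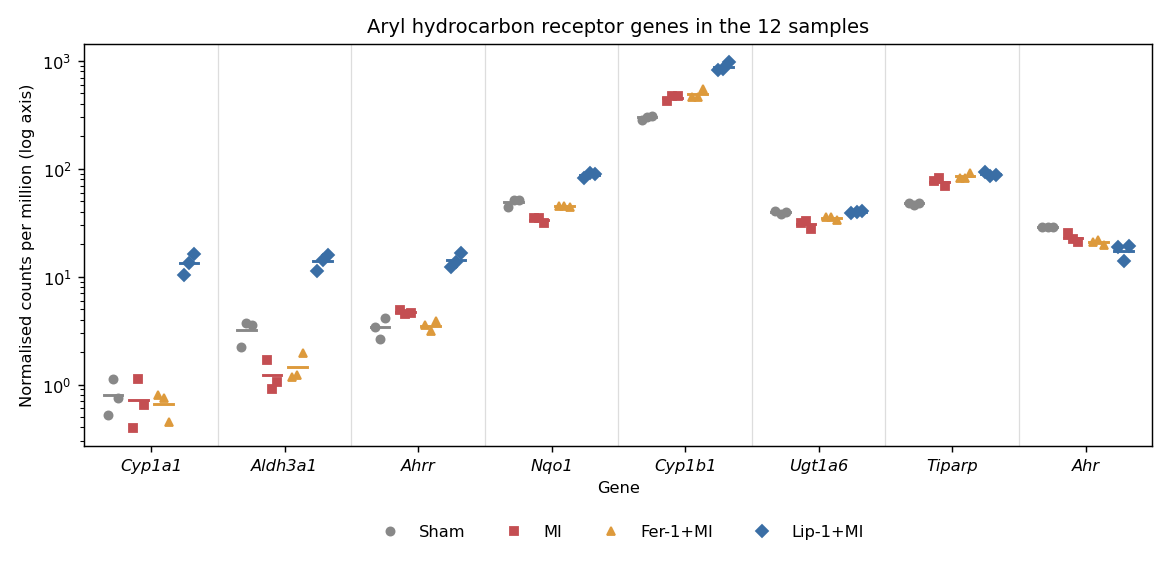
Normalised counts (CPM, log axis) of 8 genes of the aryl hydrocarbon receptor list in the 12 samples, coloured by group, with short lines at the group means. The 3 Lip-1+MI samples of Cyp1a1 sit at 10.3 to 16.2 CPM, above all 9 other samples, while Tiparp and Ahr differ by little between the groups with ligation.

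Genes of cholesterol synthesis rose as a block, early and late enzymes alike. Of 26 tested members of the list, 21 rose and 0 fell (80.8%, against 3.05% of all genes), the median log2 fold change was 0.54, and all 26 estimates were positive. Pmvk and Mvd, which process phosphorylated mevalonate, did not pass the test, with log2 fold changes of 0.20 ± 0.10 (95% interval -0.0074 to 0.42) and 0.33 ± 0.13 (0.066 to 0.60). The Mvd call was gained without MI 1 (adjusted p = 0.0317).

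Early enzymes make mevalonate. Hmgcs1, HMG-CoA synthase, was at 84.6, 86.1 and 88.2 CPM in MI and 119, 141 and 137 CPM in Lip-1+MI, a log2 fold change of 0.62 ± 0.060 (adjusted p = 4.27e-06). Its lowest Lip-1 library exceeded its highest MI library. The Hmgcs1 promoter is shown because it holds a match to the sterol regulatory element in the form TCACNCCAC, in capitals, with N any base.
Hmgcs1, chr13:119690201-119690350, plus strand: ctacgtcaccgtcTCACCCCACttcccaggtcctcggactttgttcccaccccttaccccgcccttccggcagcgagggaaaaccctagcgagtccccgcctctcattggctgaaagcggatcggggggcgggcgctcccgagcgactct
That element stood, on either strand of the 250 bases before the start, in 1 of the 18 list members with a RefSeq promoter, against 1.22% of all genes. CCAAT, the core bound by the NF-Y partner of SREBP factors, stood in 16 of the 18 and in 14 of the 15 that rose, against 37.5% of all genes.

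The middle of the pathway joins isoprenoid units into squalene and closes the ring. Fdps, farnesyl diphosphate synthase, was at 169, 159.5 and 159 CPM in MI and 257, 246 and 238 CPM in Lip-1+MI (0.60 ± 0.047, adjusted p = 5.18e-07). Fdft1, squalene synthase, went from 36.5, 38.3 and 35.4 CPM to 60.1, 60.9 and 60.6 CPM (0.72 ± 0.059, adjusted p = 8.19e-07), and Sqle, squalene epoxidase, from 56.5, 57.9 and 60.6 CPM to 90.4, 96 and 98.7 CPM (0.70 ± 0.055, adjusted p = 5.18e-07). The groups of all 3 genes were separate. Idi1, which isomerises the isoprenoid unit, rose by 0.66 ± 0.069 (adjusted p = 8.71e-06; its model overlaps Wdr37). The ring closing enzyme Lss rose by less, 0.33 ± 0.071 (adjusted p = 0.0081), a call lost without Lip-1+MI 1.

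Late enzymes trim and reduce lanosterol to cholesterol. Msmo1, the sterol C4 methyl oxidase, was at 39.1, 38.2 and 37 CPM in MI, 31.4, 24.5 and 22.9 CPM in Fer-1+MI and 62.7, 68.9 and 66.1 CPM in Lip-1+MI. Its Fer-1 libraries were all below MI and its Lip-1 libraries all above. The log2 fold change was 0.79 ± 0.087 against MI (adjusted p = 1.70e-05) and 1.33 ± 0.089 against Fer-1+MI (adjusted p = 7.59e-08). Tm7sf2, a sterol reductase, rose by 0.86 ± 0.12 (adjusted p = 0.000232; overlapping Vps51) and Dhcr7, the reductase before the end of the route, by 0.64 ± 0.084 (adjusted p = 0.000109).

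Some regulators of the pathway rose too. Insig1, the anchor that, when sterol is ample, holds SREBP in the endoplasmic reticulum, was at 187, 177 and 179.7 CPM in MI and 302, 304 and 292 CPM in Lip-1+MI (0.72 ± 0.058, adjusted p = 6.29e-07), with widely separate groups. Srebf2, which encodes SREBP2, rose by 0.34 ± 0.052 (adjusted p = 0.00053).

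The direct test set the groups given the compounds apart in this list as well. Of the 26 members, 20 were higher in Lip-1+MI than in Fer-1+MI and 0 were lower, with a median log2 difference of 0.704. With Fer-1, 0 rose and 5 fell against MI, where 3.07% of all genes fell: Msmo1 (-0.54 ± 0.089), Idi1 (-0.42 ± 0.070), Acat2 (-0.35 ± 0.094), Fdps (-0.23 ± 0.047) and Sqle (-0.22 ± 0.056). The difference between Lip-1+MI and Fer-1+MI was 1.08 ± 0.070 for Idi1 and 0.93 ± 0.056 for Sqle (adjusted p = 5.93e-08 and 2.50e-08). Summed over the list's 26 genes, levels were 1640 to 1770 CPM in Sham, 1400 to 1470 CPM in MI, 1240 to 1360 CPM in Fer-1+MI and 1990 to 2090 CPM in Lip-1+MI, so the 4 groups did not overlap.

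**Figure D3:**
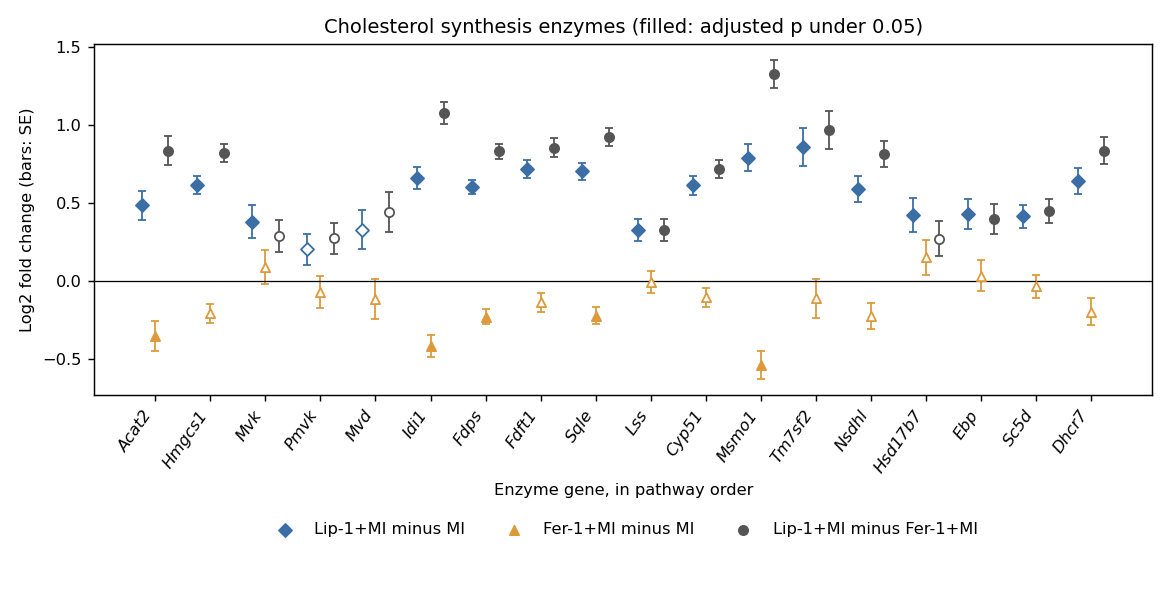
Log2 fold changes with their standard errors for 18 cholesterol synthesis enzymes in pathway order, for Lip-1+MI minus MI (diamonds), Fer-1+MI minus MI (triangles) and Lip-1+MI minus Fer-1+MI (circles); filled symbols passed an adjusted p of 0.05. The Lip-1 values lie above 0 for all 18 enzymes, and the Fer-1 values lie near or below 0 with the highest at 0.15 for Hsd17b7.

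Fatty acid synthesis and desaturation rose as well. In the list of sterol efflux and lipogenesis genes, 12 of 17 rose and 1 fell, with a median log2 fold change of 0.301. Scd2, a stearoyl-CoA desaturase that makes monounsaturated fatty acids, was at 303, 313 and 331 CPM in MI and 718, 750.5 and 584 CPM in Lip-1+MI. Its groups were well apart, although Lip-1+MI 3 was lower than the other two, and the log2 fold change was 1.12 ± 0.094 (adjusted p = 1.74e-05). The related Scd went from 6.45, 5.44 and 8.08 CPM to 16.3, 15.9 and 15.1 CPM (1.25 ± 0.16, adjusted p = 7.87e-05). Fasn, fatty acid synthase, rose by 0.37 ± 0.046 (adjusted p = 7.10e-05), Fads1, a front-end desaturase of polyunsaturated fatty acids, by 0.47 ± 0.060 (adjusted p = 8.14e-05) and Srebf1 by 0.42 ± 0.066 (adjusted p = 0.00065; overlapping Rai1).

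The list also holds genes of sterol export, which LXR receptors switch on. Abca1, the cholesterol exporter, rose by 0.19 ± 0.045 with Lip-1 (adjusted p = 0.0133, lost without MI 3 or Lip-1+MI 1) and by 0.35 ± 0.045 with Fer-1 (adjusted p = 0.000114). Abcg1, another sterol exporter, rose by 0.30 ± 0.082 with Lip-1 (adjusted p = 0.0344), a call lost in 9 of 23 alternatives. Apoe rose by 0.22 ± 0.053 with Lip-1 (adjusted p = 0.0151, lost without MI 2, Lip-1+MI 1 or Lip-1+MI 3) and by 0.32 ± 0.053 with Fer-1 (adjusted p = 0.000935). Against Fer-1+MI, 7 of the 17 genes were higher with Lip-1, among them Scd (1.14 ± 0.16, adjusted p = 0.00028) and Fasn (0.48 ± 0.046, 4.36e-06), while Abca1 did not pass (-0.16 ± 0.045, 95% interval -0.25 to -0.064, adjusted p = 0.0675). Me1, malic enzyme, was the member that fell (-0.19 ± 0.050, adjusted p = 0.0302), a call lost in 9 of 23 alternatives.

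Most listed lysosomal genes rose. Of 54 tested members, 33 rose (61.1%) and 0 fell, with a median log2 fold change of 0.239 and 49 positive estimates. The rises ran from 0.16 for Ctsb to 0.53 for Ctsl. In the broader KEGG lysosome list, 41 of 117 rose (35%) and 0 fell. In MI against Sham, 39 of the 54 were lower. The list's 55 identifiers summed to 15700 to 16300 CPM in Sham and 12900 to 13600 CPM in MI. The Lip-1+MI sums, 15900 to 16100 CPM, lay within the range of Sham. Dpp7, a lysosomal dipeptidase, is shown with its promoter because it had one of the smallest p-values of all genes and carries the palindrome TCACGTGA, the core of the element that TFEB is known to bind, in capitals.
Dpp7, chr2:25356333-25356482, minus strand: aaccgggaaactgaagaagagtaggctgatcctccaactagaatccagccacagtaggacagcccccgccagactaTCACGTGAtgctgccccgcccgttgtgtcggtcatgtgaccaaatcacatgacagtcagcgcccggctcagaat
Dpp7 is not in the list of 54 and was named for its small p-value. In the 250 bases before the start, TCACGTGA stood in 6 of the 45 listed genes with a RefSeq promoter, and these 6 were among the 26 of the 45 that rose (Cln3, Ctsa, Ctsd, Gla, Mcoln1 and Sumf1), against 0.907% of all genes. CACGTG, which that palindrome contains, stood in 14 of the 45 and 12 of the 26, against 6.86% of all genes.

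Dpp7 was at 182, 171 and 163 CPM in MI and 260.5, 259.5 and 262 CPM in Lip-1+MI, with the 3 Lip-1 libraries almost level and well above MI. Its log2 fold change was 0.60 ± 0.049 (adjusted p = 8.19e-07). Ctsl, the protease cathepsin L, was at 1036, 996 and 975 CPM in MI and 1442, 1420 and 1477 CPM in Lip-1+MI (0.53 ± 0.044, adjusted p = 8.21e-07), again without overlap. Gaa, the enzyme that breaks down lysosomal glycogen, went from 163, 164 and 163 CPM to 227, 222 and 224 CPM (0.46 ± 0.043, adjusted p = 3.02e-06), and Tpp1, a tripeptidyl peptidase, from 161, 158 and 147 CPM to 208, 205 and 220.2 CPM (0.44 ± 0.044, adjusted p = 5.54e-06). Npc2, which carries cholesterol out of the lysosome, rose by 0.41 ± 0.042 (adjusted p = 7.27e-06), Grn (progranulin) by 0.40 ± 0.042 (7.68e-06), the membrane protein Lamp1 by 0.39 ± 0.044 (1.99e-05) and the calcium channel Mcoln1 by 0.45 ± 0.077 (0.00134). Ctsb, cathepsin B and the most abundant member, rose by 0.16 ± 0.038 (adjusted p = 0.0133), a call lost without MI 3, Lip-1+MI 1 or Lip-1+MI 3.

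Tfeb and Tfe3, factors thought to control this set, did not pass the test at the level of their own RNA. Tfeb was at 16.8, 16.7 and 16.6 CPM in MI and slightly lower, 14.6, 15.6 and 15.1 CPM, in every Lip-1+MI library, a log2 fold change of -0.15 ± 0.083 (95% interval -0.32 to 0.028, adjusted p = 0.364), and that of Tfe3 was 0.020 ± 0.067 (-0.12 to 0.16; 0.924). The vacuolar proton pump, which acidifies the lysosome, gave 10 rises and 0 falls among 18 subunits and helpers (median 0.195), and 6 rises without Lip-1+MI 1. Its surest rise was Atp6v1d, a stalk subunit, at 112, 116 and 117 CPM in MI and 138, 140.3 and 141 CPM in Lip-1+MI (0.28 ± 0.040, adjusted p = 0.000216). The most abundant subunit, Atp6v0c of the membrane ring, did not pass (0.12 ± 0.047, 95% interval 0.024 to 0.22, adjusted p = 0.148).

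Autophagy genes followed to a lesser degree, with 8 of 29 higher and 0 lower (median 0.133). The count was 4 without MI 3 and 5 without each of the Lip-1+MI samples. Sqstm1, the cargo adaptor p62, was at 512, 509 and 517 CPM in MI and 589, 592 and 584 CPM in Lip-1+MI, tight groups with a gap between them (0.20 ± 0.037, adjusted p = 0.00233; its model overlaps Mrnip). Optn, another adaptor, rose by 0.25 ± 0.046 (adjusted p = 0.00288). Against Fer-1+MI, 15 of the 54 lysosomal genes, 5 of the 18 proton pump genes and 2 of the 29 autophagy genes were higher with Lip-1 and 0 of each list were lower, among them Ctsl (0.36 ± 0.044, adjusted p = 7.67e-05), Dpp7 (0.40 ± 0.049, 9.49e-05) and Npc2 (0.32 ± 0.042, 0.000165). Fer-1+MI against MI gave 13 lysosomal (24.1%) and 6 autophagy rises (20.7%) and 0 for the proton pump, against 2.29% of all genes.

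**Figure D4:**
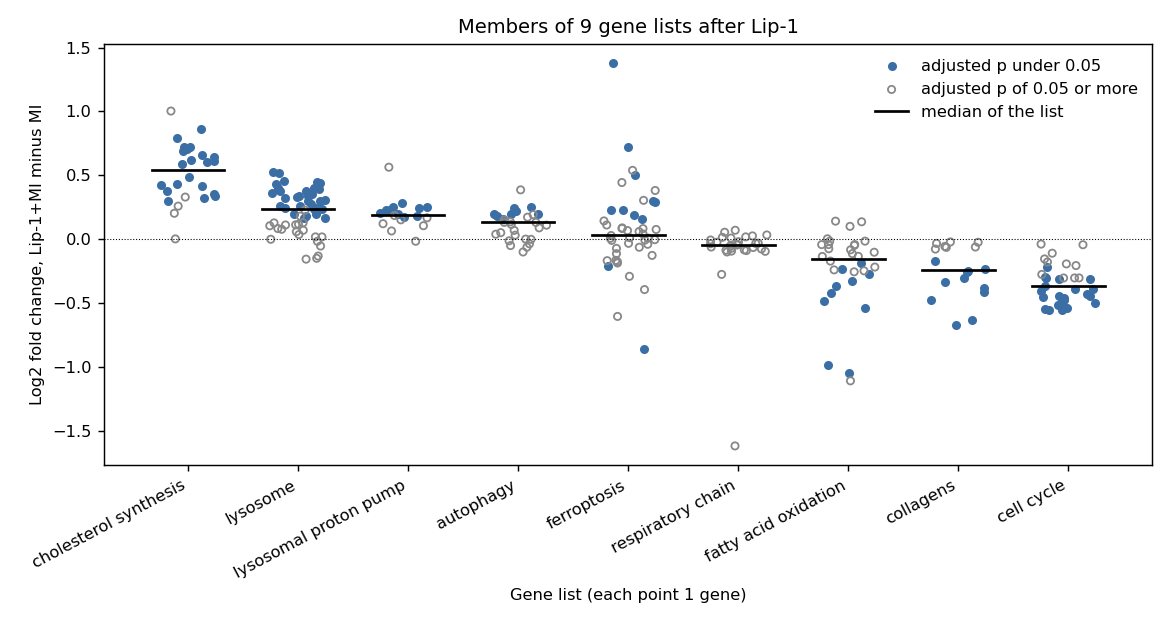
Log2 fold changes of single genes in Lip-1+MI minus MI for 9 gene lists, one point per tested gene, blue where the adjusted p was under 0.05 and open where it was not, with the list median as a black line. The medians run from 0.54 for cholesterol synthesis through 0.239 for the lysosome and 0.037 for ferroptosis to -0.364 for the cell cycle.

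Genes that execute or restrain ferroptosis itself were mixed. Of 44 tested members of the ferroptosis list, 9 rose (20.5%) and 2 fell (4.55%), against 3.05% of all genes in each direction. The median log2 fold change was 0.037. The rises were 5 without MI 3, and 0 members fell without MI 1, MI 3, Lip-1+MI 2 or Lip-1+MI 3. Some risen members also belong to the sets above (Nqo1 and Fdft1), so the list is not separate from them.

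Gpx4, the glutathione peroxidase that detoxifies lipid peroxides, was at 62.7, 56.4 and 48.3 CPM in MI and 51.8, 79 and 76.1 CPM in Lip-1+MI. Lip-1+MI 1 lay among the MI libraries and the other two lay above them. The log2 fold change was 0.31 ± 0.15 (95% interval -0.042 to 0.65, adjusted p = 0.329), and without Lip-1+MI 1 it was 0.48 with an adjusted p of 0.00627; the gene model overlaps Sbno2. Slc7a11, the cystine importer, had a log2 fold change of -0.17 ± 0.10 (95% interval -0.39 to 0.042, adjusted p = 0.391) and Aifm2, the coenzyme Q reductase FSP1, one of -0.16 ± 0.082 (-0.34 to 0.0085, 0.293), neither past the threshold. Acsl4, which loads polyunsaturated fatty acids into membranes, was at 118, 106 and 114 CPM in MI and 134, 128 and 134 CPM in Lip-1+MI and rose by 0.23 ± 0.047 (adjusted p = 0.00557). Ptgs2, cyclooxygenase 2, was at 223, 262 and 291 CPM in MI and 361, 323 and 373 CPM in Lip-1+MI. All Lip-1 libraries were above MI, and the log2 fold change of 0.45 ± 0.21 did not pass in the fit of all 12 samples (adjusted p = 0.306) but passed in the fit of the 6 samples alone (0.0289) and without Sham 1 (0.0149).

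Among iron genes, 5 of 37 rose (13.5%) and 1 fell (2.7%), against 3.05% of all genes in each direction (median 0.109). The rises were 2 without Lip-1+MI 3 and 3 without MI 1 or MI 3. Tfrc, the transferrin receptor that brings iron into cells, was at 60.8, 66.5 and 56.2 CPM in MI and 74.4, 78.6 and 73.6 CPM in Lip-1+MI, with no overlap. It rose by 0.30 ± 0.061 (adjusted p = 0.00487, lost on FPKM values with no filter) and was higher than in Fer-1+MI by 0.35 ± 0.061 (adjusted p = 0.00264). Lcn2, a secreted siderophore carrier, went from 1993, 1941 and 1955 CPM to 2875, 2714 and 3003 CPM (0.54 ± 0.074, adjusted p = 0.000415), beside 0.71 ± 0.075 with Fer-1. The ferritin heavy chain Fth1, at 2529, 2446 and 2355 CPM in MI and higher in all 3 Lip-1+MI libraries at 2701, 2679 and 2724 CPM, did not pass (0.14 ± 0.048, 95% interval 0.045 to 0.24, adjusted p = 0.0873; 0.0397 in DESeq2), nor did the ferritin receptor Ncoa4 (0.11 ± 0.048, 0.013 to 0.21). The Fth1 model overlaps Best1.

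Hmox1, heme oxygenase 1, set the treated groups apart. It was at 992, 869.8 and 915 CPM in MI, 1246, 1147 and 1128 CPM in Fer-1+MI and 824, 807 and 779 CPM in Lip-1+MI. The Fer-1 libraries were the highest and the Lip-1 libraries the lowest of the ligated groups, with no overlap. The log2 fold change was -0.20 ± 0.052 against MI (adjusted p = 0.0235, lost without MI 1, MI 3, Lip-1+MI 2 or Lip-1+MI 3) and -0.55 ± 0.052 against Fer-1+MI (adjusted p = 4.36e-06). Gclc, the rate-limiting enzyme of glutathione synthesis, had the same order, 212, 203 and 196 CPM in MI, 247, 231 and 225 CPM in Fer-1+MI and 187, 181 and 178 CPM in Lip-1+MI. It missed the threshold against MI (-0.17 ± 0.049, 95% interval -0.27 to -0.062, adjusted p = 0.0556), passed it in 6 of 23 alternatives, and was lower than in Fer-1+MI (-0.37, adjusted p = 0.00024). Slc7a11 (-0.42 ± 0.10, 0.0257) and the iron exporter Slc40a1 (-0.57 ± 0.11, 0.00764) were also lower with Lip-1 than with Fer-1.

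In the wider glutathione and thioredoxin list, 3 of 45 genes rose (6.67%) and 2 fell (4.44%), near the 3.05% of all genes in each direction. There was 1 fall without MI 1, MI 3, Lip-1+MI 2 or Lip-1+MI 3. Gpx3, the secreted peroxidase, was at 1239, 1188 and 1123 CPM in MI and 1489, 1493 and 1527 CPM in Lip-1+MI, clearly separate, with a log2 fold change of 0.34 ± 0.043 (adjusted p = 7.34e-05). Mgst1, a microsomal transferase that reduces lipid peroxides, rose by 0.40 ± 0.066 (adjusted p = 0.000975). Gpx1, the cytosolic peroxidase, fell (-0.28 ± 0.060, adjusted p = 0.00687). The second fall was Chac1, a glutathione-degrading enzyme (-0.86 ± 0.22, adjusted p = 0.0256), lost without MI 1, MI 3, Lip-1+MI 2 or Lip-1+MI 3 or on FPKM values with no filter.

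Most listed genes of cell division fell. Of 33 tested cell cycle genes, 22 fell and 0 rose (66.7%, against 3.05% of all genes). The median log2 fold change was -0.364 and all 33 estimates were negative. The broader KEGG cell cycle list had a smaller share, with 17 of 119 lower (14.3%), 2 higher (1.68%) and a median of -0.0682. Mki67, the proliferation antigen Ki-67, was at 125, 124 and 133 CPM in MI and 92.1, 94.8 and 90.8 CPM in Lip-1+MI. Each Lip-1 library was below each MI library and near Sham (99.9, 96.6 and 91.8 CPM), and the log2 fold change was -0.46 ± 0.053 (adjusted p = 2.61e-05). Mcm5, a subunit of the replicative helicase, fell (-0.55 ± 0.075, adjusted p = 0.000148), Top2a, topoisomerase II (-0.54 ± 0.076, 0.000212), the mitotic kinase Cdk1 (-0.51 ± 0.076, 0.000359) and the spindle midzone protein Prc1 (-0.39 ± 0.053, 0.000165). The p53 target Cdkn1a did not pass (-0.036 ± 0.12, 95% interval -0.29 to 0.22). Against Fer-1+MI, 0 of the 33 were called in either direction, where the median difference was -0.0722. Fer-1+MI set against MI gave 16 falls.

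Most collagen genes and a part of the matrix genes fell with Lip-1. Of 18 collagen genes, 11 fell and 0 rose (median -0.239), and of 42 matrix and elastic fibre genes 14 fell and 4 rose (median -0.131). Matrix falls numbered 9 without MI 3 or Lip-1+MI 1. Col1a1, the main fibrillar collagen, was at 15260, 15330 and 16450 CPM in MI and 11780, 12020 and 11680 CPM in Lip-1+MI, between MI and Sham (9975, 10380 and 9715 CPM) without touching either, with a log2 fold change of -0.41 ± 0.040 (adjusted p = 4.62e-06). Col3a1 went from 3566, 3571 and 4296 CPM to 2777, 2664 and 2788 CPM (-0.47 ± 0.064, adjusted p = 0.000175). Col14a1, a collagen on fibril surfaces, fell (-0.38 ± 0.041, adjusted p = 1.67e-05). In bulk tissue, fewer cells of a type and less RNA per cell cannot be told apart, here or in any result of this kind.

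Elastic fibre genes had some of the smallest p-values among the matrix falls. Fbln5, the fibulin that organises elastic fibres, was at 139, 134 and 133 CPM in MI and 86.3, 90.8 and 82.2 CPM in Lip-1+MI, a wide gap with narrow groups (-0.65 ± 0.047, adjusted p = 2.74e-07). Eln, elastin, was at 869, 794 and 978 CPM in MI and 585, 532 and 542 CPM in Lip-1+MI (-0.67 ± 0.064, adjusted p = 3.97e-06), Fbln2 fell (-0.62 ± 0.060, 4.27e-06) and the fibrillin Fbn2 (-0.46 ± 0.042, 2.14e-06). Spp1, osteopontin, fell (-0.40 ± 0.046, adjusted p = 3.19e-05), and Fn1, fibronectin, missed the threshold (-0.12 ± 0.040, 95% interval -0.21 to -0.039, adjusted p = 0.0813; 0.0383 in DESeq2 and 0.0462 with library size only).

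A few matrix genes rose instead. Mmp2, a gelatinase, was at 1239, 1149 and 1176 CPM in MI and 1766, 1645 and 1738 CPM in Lip-1+MI (0.53 ± 0.046, adjusted p = 1.41e-06). Dcn, decorin, a proteoglycan of collagen fibrils, went from 947, 975 and 1054 CPM to 1577, 1534 and 1673 CPM (0.68 ± 0.061, adjusted p = 1.92e-06). Both had all Lip-1 libraries above all MI libraries. Fmod (fibromodulin) rose by 0.35 ± 0.042 (adjusted p = 4.46e-05) and the membrane protease Mmp14 by 0.27 ± 0.053 (adjusted p = 0.0048).

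Fibroblast markers moved in both directions along with these genes: of 13, 4 fell (2 without MI 3 or Lip-1+MI 1) and 1 rose, and Col1a1, Col3a1 and Dcn belong to this list too. Their sum was 21700 to 23900 CPM in MI and 18100 to 18200 CPM in Lip-1+MI. Col1a1 made up most of that sum, which therefore largely repeats the collagen result and is no separate measure of fibroblasts. The part of cell number in the matrix result was not tested. Against Fer-1+MI, 2 collagens were lower with Lip-1, among them Col3a1 (-0.29 ± 0.063, adjusted p = 0.0171), and 3 were higher, among them Col8a2 (0.30 ± 0.059, adjusted p = 0.00675). Fer-1 against MI gave 12 collagen falls and 13 matrix falls, with Fbln5 at -0.68 ± 0.048 and Eln at -0.77 ± 0.064. The direct difference was 0.034 ± 0.048 for Fbln5 (95% interval -0.066 to 0.13) and 0.10 ± 0.063 for Eln (-0.037 to 0.23).

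Contractile genes of smooth muscle and myofibroblasts fell in part, 5 of 15 with 0 rises. Tagln, transgelin, was at 1065, 1011 and 1110 CPM in MI, 638, 579 and 632 CPM in Fer-1+MI and 774, 773 and 685 CPM in Lip-1+MI, with the Lip-1 libraries between the other groups (-0.51 ± 0.060, adjusted p = 2.94e-05; overlapping Sidt2). Smtn, smoothelin, fell (-0.72 ± 0.075, adjusted p = 7.71e-06) and Tpm2, beta tropomyosin (-0.41 ± 0.053, 8.41e-05). Acta2, smooth muscle actin, was at 1997, 2075 and 2183 CPM in MI and 2068, 2309 and 1989 CPM in Lip-1+MI, overlapping ranges (0.026 ± 0.054, 95% interval -0.087 to 0.14). Fer-1+MI gave 10 falls in this list against MI, and 6 of the 15 genes were higher and 1 lower in Lip-1+MI than in Fer-1+MI, with Acta2 higher by 0.33 ± 0.054 (adjusted p = 0.00132).

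**Figure D5:**
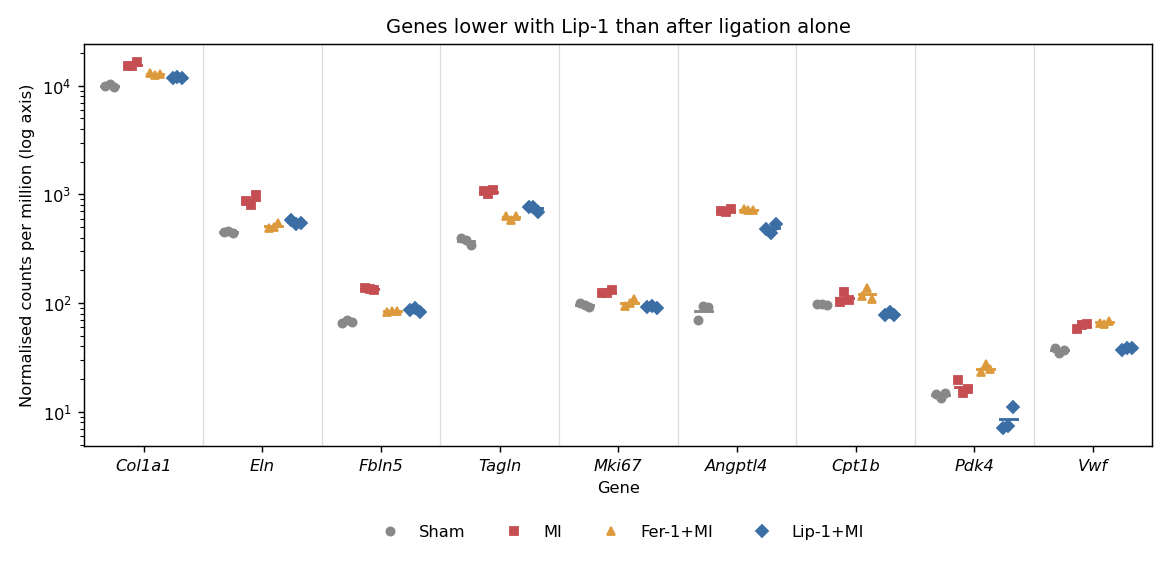
Normalised counts (CPM, log axis) in the 12 samples for 9 genes that fell in Lip-1+MI against MI, coloured by group, with short lines at the group means. Fer-1+MI lies near Lip-1+MI for Eln, Fbln5 and Mki67, and near or above MI for Angptl4, Cpt1b, Pdk4 and Vwf.

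A minority of fatty acid oxidation genes fell. Of 32 tested members 10 fell, 0 rose and 22 did not pass against MI (median -0.151), and 15 were lower and 0 higher in Lip-1+MI than in Fer-1+MI, against 1.41% of all genes lower. Pdk4, the kinase that holds back pyruvate oxidation and a standard PPAR target, was at 19.7, 14.9 and 16.2 CPM in MI, 23, 27.3 and 24.6 CPM in Fer-1+MI, 7.15, 7.43 and 11.1 CPM in Lip-1+MI and 14.7, 13.3 and 14.9 CPM in Sham. The Lip-1 libraries were below all 9 others and the Fer-1 libraries above all others. The log2 fold change was -0.98 ± 0.14 against MI (adjusted p = 0.000504) and -1.55 ± 0.14 against Fer-1+MI (adjusted p = 6.44e-06), and Fer-1 against MI gave 0.57 ± 0.14 (adjusted p = 0.0251).

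Cpt1b, the carnitine transferase that admits long-chain fatty acids to heart mitochondria, was at 102, 126 and 107 CPM in MI and 78.3, 82.8 and 78.4 CPM in Lip-1+MI, with no overlap (-0.48 ± 0.079, adjusted p = 0.00137; overlapping Chkb). Angptl4, a secreted lipase inhibitor under PPAR control, went from 697, 683 and 739 CPM to 486, 446 and 532 CPM (-0.53 ± 0.092, adjusted p = 0.00444). Ucp2, a mitochondrial carrier, fell (-0.42 ± 0.058, adjusted p = 0.000184) and Acadvl, the very long chain acyl-CoA dehydrogenase (-0.27 ± 0.046, adjusted p = 0.0011). All of these were lower than in Fer-1+MI, with log2 differences of -0.61 for Cpt1b, -0.57 for Angptl4, -0.49 for Ucp2 and -0.35 for Acadvl (adjusted p = 0.000321, 0.00457, 5.86e-05 and 0.000191). The receptor gene Ppara was at 6.67, 5.36 and 7.46 CPM in MI and 5.26, 7.86 and 8.36 CPM in Lip-1+MI (0.14 ± 0.17, 95% interval -0.22 to 0.50). Of 29 respiratory chain genes, 0 were called.

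Secreted defence proteins known from the acute phase were among the surest rises. In the complement and acute phase list, 8 of 22 genes rose (36.4%) and 2 fell (9.09%), against 3.05% of all genes in each direction. Outside that list, Lbp, which hands bacterial lipopolysaccharide to CD14, was at 144, 154 and 153 CPM in MI, 295, 297 and 316 CPM in Lip-1+MI and 273, 272 and 262 CPM in Fer-1+MI. The Lip-1 libraries were far above MI, above Fer-1+MI and still below Sham (333, 347 and 350.2 CPM), and the log2 fold change was 1.01 ± 0.044 (adjusted p = 2.38e-10). Serping1, the C1 inhibitor, went from 525, 550.1 and 544 CPM to 793, 783 and 841 CPM (0.58 ± 0.041, adjusted p = 2.44e-07). Orm1, an orosomucoid, rose by 1.16 ± 0.16 (adjusted p = 0.000147), the complement protease C1s by 0.42 ± 0.057 (0.000161) and C4b by 0.46 ± 0.074 (0.000975; overlapping a second C4 model).

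The 2 falls were C1q chains, which macrophages make: C1qc, at 56.3, 46.9 and 44.1 CPM in MI and 35.9, 34.7 and 34.4 CPM in Lip-1+MI (-0.49 ± 0.075, adjusted p = 0.00053), and C1qa (-0.31 ± 0.059, 0.00277). They are also the 2 of 22 macrophage and monocyte markers that fell, with 0 that rose (4 falls without MI 3, and 1 or 2 rises without MI 1, Sham 1 or Lip-1+MI 2). That list summed to 1340 to 1510 CPM in MI and 1400 to 1450 CPM in Lip-1+MI. Fer-1 against MI gave 9 rises and 4 falls in the complement list, with Serping1 at 0.62 ± 0.041, and Lbp at 0.84 ± 0.044. Between the treated groups Lbp differed by 0.17 ± 0.044 (adjusted p = 0.0373) and Serping1 did not pass (-0.046 ± 0.041, 95% interval -0.13 to 0.040).

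Inflammatory mediators of the ligated heart mostly did not pass in the fit of all 12 samples. The intervals below come from that fit, so they also carry the spread within Sham and Fer-1+MI. Of 35 cytokine and chemokine genes, 1 rose (2.86%) and 3 fell (8.57%), and of 19 NF-kappaB feedback genes 1 rose (5.26%). The share of all genes was 3.05% in each direction. The cytokine rises were 4, with 4 falls, in the fit of the 6 samples alone, 3 without Sham 1, and 0 without MI 3 or Lip-1+MI 1 or on the deposited FPKM values. Il1b was at 226, 236 and 220.2 CPM in MI and 219, 209.8 and 194 CPM in Lip-1+MI, lower in every Lip-1 library by a narrow gap, with a log2 fold change of -0.13 ± 0.23 (95% interval -0.66 to 0.39, adjusted p = 0.83). Nos2, the inducible nitric oxide synthase, was at 637, 598 and 725 CPM in MI and 920.4, 771 and 833 CPM in Lip-1+MI, with Lip-1 higher in all 3 (0.37 ± 0.34, -0.43 to 1.16, adjusted p = 0.653, but 0.024 in the fit of the 6 samples alone; overlapping Lgals5). For the monocyte chemokine Ccl2 the interval was -0.073 to 0.38 around 0.15, and for Acod1, which makes itaconate, -0.32 to 0.56 around 0.12. The falls were Il33, an alarmin of stromal cells, at 17.6, 20 and 23 CPM in MI and 12.4, 11.6 and 10.9 CPM in Lip-1+MI (-0.79 ± 0.10, adjusted p = 7.27e-05), the macrophage growth factor Csf1 (-0.23 ± 0.044, 0.00387) and the eosinophil chemokine Ccl11 (-0.54 ± 0.12, 0.00746). Ccl11 was also lower than in Fer-1+MI (-1.08, adjusted p = 1.55e-05). The rise was Cxcl11 (0.77 ± 0.20, adjusted p = 0.0247), a call lost without MI 3 or Lip-1+MI 1 or on the deposited FPKM values.

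Heart muscle genes stayed largely below the threshold. Of 30 cardiomyocyte genes, 1 rose (3.33%) and 3 fell (10%), against 3.05% of all genes in each direction. There were 2 rises without MI 2 and 1 fall without MI 1, MI 2 or Lip-1+MI 3. Myh6 was at 6760, 8046 and 7541 CPM in MI and 7780, 8514 and 7934 CPM in Lip-1+MI, overlapping ranges (0.12 ± 0.060, 95% interval -0.011 to 0.24). Lrrc10, a cardiomyocyte protein of the contractile apparatus, was the rise, from 11.7, 10.4 and 9.32 CPM to 14.6, 16.6 and 13.9 CPM (0.52 ± 0.10, adjusted p = 0.0043), far below Sham (52.5, 55.2 and 57.2 CPM). The falls were Myl4, the atrial light chain (-0.38 ± 0.070, 0.00268), Mb (-0.56 ± 0.13, 0.0169, lost without MI 1, MI 2 or Lip-1+MI 3 or on the deposited FPKM values) and Tnni3, cardiac troponin I (-0.24 ± 0.064, 0.0294, lost without MI 1, MI 2, Lip-1+MI 1 or Lip-1+MI 3 or on the deposited FPKM values; overlapping Dnaaf3).

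Among 32 ion channel and gap junction genes, 2 rose (6.25%) and 0 fell, against 3.05% of all genes in each direction. Gja5, connexin 40 of the conduction system and arteries, was at 66.6, 67.2 and 82.3 CPM in Sham, 22.9, 25.1 and 22 CPM in MI, 21.1, 20.7 and 23.1 CPM in Fer-1+MI and 30.5, 29.2 and 34.4 CPM in Lip-1+MI. The Lip-1 libraries were above all other ligated libraries and far below Sham. It rose by 0.43 ± 0.088 against MI (adjusted p = 0.00611, lost on FPKM values with no filter) and was higher than in Fer-1+MI by 0.54 ± 0.089 (adjusted p = 0.00166). Gja1, connexin 43 of the working ventricle, was at 516, 550.5 and 551 CPM in MI and 543, 575 and 540.1 CPM in Lip-1+MI (0.036 ± 0.044, 95% interval -0.056 to 0.13). The other rise, Abcc9, a subunit of ATP-sensitive potassium channels (0.25 ± 0.059, adjusted p = 0.0142), was lost without MI 1, Lip-1+MI 2 or Lip-1+MI 3 or on the deposited FPKM values. Without MI 1, Lip-1+MI 2 or Lip-1+MI 3 the list had 1 rise, and without MI 2 it had 4.

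Endothelial genes gave 3 falls among 14 markers (21.4%, against 3.05% of all genes) and 0 rises. Vwf, von Willebrand factor, was at 58, 63.5 and 64.9 CPM in MI, 65.9, 64 and 69.1 CPM in Fer-1+MI and 36.7, 38.8 and 38.6 CPM in Lip-1+MI, and the Lip-1 libraries lay within the range of Sham (38.9, 34.9 and 36.8 CPM). Its log2 fold change was -0.71 ± 0.060 against MI (adjusted p = 1.01e-06) and -0.80 ± 0.060 against Fer-1+MI (adjusted p = 2.16e-07). Plvap, a component of endothelial fenestrae, fell (-0.48 ± 0.097, adjusted p = 0.00508) and was lower than in Fer-1+MI (-0.61, 0.00118). The 14 markers summed to 783 to 821 CPM in MI, 806 to 829 CPM in Fer-1+MI and 700 to 738 CPM in Lip-1+MI, and the part of endothelial cell number was not tested.

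Several named genes outside these lists rose too. Pvalb, the calcium buffer parvalbumin, was at 2.1, 1.59 and 2.71 CPM in MI and 7.7, 6.35 and 7.49 CPM in Lip-1+MI (1.76 ± 0.18, adjusted p = 7.27e-06), beside 1.43 ± 0.18 with Fer-1. Tppp3, a tubulin-binding protein, went from 3.23, 3.88 and 4.22 CPM to 10, 7.43 and 11 CPM (1.32 ± 0.16, adjusted p = 5.74e-05) and was above Fer-1+MI (1.44 ± 0.16, 3.41e-05). The carboxylesterases Ces1a (1.51 ± 0.20, adjusted p = 0.000122) and Ces1d (1.68 ± 0.27, 0.000703; overlapping a predicted neighbour), the aminoadipate transaminase Aadat (1.13 ± 0.099, 1.44e-06) and the exchange factor Rasgrf1 (1.31 ± 0.29, 0.0102, lost without Lip-1+MI 2) also rose. As close relatives, the Ces1 genes may share reads. Htr3a, Nek5 and Agmat were also called, but were at 0 in all MI libraries and had means under 1 CPM with Lip-1, so no fold change is given.

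On the falling side, Myh3, the embryonic myosin heavy chain, was at 2.76, 5.02 and 3.82 CPM in MI and 1.32, 1.99 and 0.904 CPM in Lip-1+MI (-1.46 ± 0.28, adjusted p = 0.00393). F13a1, the coagulation factor XIII subunit found in resident macrophages, went from 34.5, 39.2 and 35.5 CPM to 19.4, 21 and 21.3 CPM, with no overlap (-0.82 ± 0.078, adjusted p = 3.47e-06), and was lower than in Fer-1+MI (-0.38 ± 0.078, 0.00904). Prss35, a secreted protease-like protein, fell (-1.01 ± 0.12, adjusted p = 3.19e-05), Igf2, insulin-like growth factor 2 (-0.56 ± 0.057, 5.54e-06) and Adam12, a membrane protease (-0.62 ± 0.069, 1.68e-05). The gene model named Mir675 (ENSRNOG00000040350) was set aside by the naming rule and is given after its values were seen, because its p-value was the smallest among the falls. It was at 53.8 ± 1.75 CPM in MI, 38.3 ± 1.71 CPM in Fer-1+MI and 28.6 ± 1.32 CPM in Lip-1+MI (mean ± SD, 3 samples each), with a log2 fold change of -0.91 ± 0.066 (adjusted p = 2.56e-07). Krt14 (-1.21 ± 0.19; overlapping Krt17 and Krt19), Pitpnm3 (-1.35 ± 0.28), Ankle1 (-1.16 ± 0.23) and Tmem100 (-1.01 ± 0.20) fell from low levels and kept their calls in all 23 alternatives. Oit3, Aqp7, Gdf5 and Ifitm10 lay between -1.17 and -0.97, and their calls were lost in 7, 6, 8 and 10 alternatives.

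Across all genes, 533 (3.15%) differed between Lip-1+MI and Fer-1+MI, 295 higher (1.74%) and 238 lower (1.41%) with Lip-1. Scaled by library size alone the split was 234 higher and 297 lower. The count was 337 without Fer-1+MI 2, 311 without Lip-1+MI 1 and 304 without Lip-1+MI 2. Of the 1031 genes called against MI, 121 were higher and 86 lower in both tests and 12 had opposite signs. Both tests share the Lip-1+MI samples. Fer-1+MI against MI gave 907 calls (5.36%), 388 higher and 519 lower, or 472 and 439 when scaled by library size alone, and 582 without MI 3, 574 without Fer-1+MI 2 and 569 without Fer-1+MI 3.

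The comparison of Lip-1+MI with Fer-1+MI shares no sample with that of MI with Sham. Both come from the same fit, however, and share its estimate of spread for each gene. Genes that are easily called in one, such as abundant genes, may be easily called in the other. The share of all genes is thus not a matched baseline, and the part of this in the values below was not tested. Of the 295 genes higher with Lip-1 than with Fer-1, 130 (44.1%) were higher in MI than in Sham, against 22.8% of all genes, and 90 (30.5%) were lower, against 20.8%. Of the 238 genes lower with Lip-1, 108 (45.4%) were higher in MI and 64 (26.9%) lower. These are 3.37% and 2.56%, then 2.8% and 1.82%, of the 3860 genes higher and the 3509 lower in MI than in Sham, where scaling by library size alone puts the median of all genes at -0.167 and gives 2414 and 5943.

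Beyond the cell types above, marker lists gave few calls. Neutrophil markers (5 tested), lymphocyte markers (3), erythroid (7), adipocyte (8) and skeletal muscle markers (7) gave 0 calls in either direction. Epicardial markers gave 3 falls among 10 (1 without MI 3 or Lip-1+MI 1), with sums of 307 to 326 CPM in MI and 272 to 284 CPM in Lip-1+MI, and mural markers 2 falls and 1 rise among 12 (0 rises without MI 1, Lip-1+MI 2 or Lip-1+MI 3). Schwann cell and neuron markers gave 1 rise and 1 fall among 8. The part of these cells in the results was not tested.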

How the data were processed

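RNA of 12 ventricle samples, 3 in each of 4 groups, was sequenced. Raw counts per gene were deposited as 1 table of 32623 genes, and FPKM values of 23660 genes were deposited by the authors as another. The submitters' processing notes name HISAT2 2.2.1, StringTie 2.1.6, cutadapt 1.9 and FastQC, and, for statistics, edgeR and DESeq2. The library kit keeps strand per the labels' protocols, but whether counting used it was not given, so overlapping gene models are uncertain.

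Samples were grouped by title. Counts were tested in edgeR 4.0.16 (R 4.3.3) by the quasi-likelihood test on a fit of all 12 samples, with TMM scaling, a minimum count of 10 (total 15; 16910 genes kept) and Benjamini-Hochberg adjustment over all genes. Adjusted p-values in the text come from this fit unless another tool is named. Levels are TMM-scaled CPM, that is counts per 1e6 library counts. Symbols were matched by gene ID from the FPKM table, and all 16910 tested genes had one. A floor of 3 counts was 0.066 CPM in the smallest library, which covers counting error alone. The script was tested on simulated data.

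Genes were named by rule: the 12 largest rises and falls without overlap and at 1 CPM or more, the 8 smallest p-values a direction, the 6 smallest shared with the test against Fer-1+MI, up to 4 called members a direction of each list with its most abundant member, and a set of ferroptosis, inflammatory and heart genes. A total of 58 called genes with placeholder or microRNA model names were set aside. Further list members were named after their values were seen. Members and lists were chosen with earlier results of these data known. Alternatives used DESeq2 1.42.0 and limma 3.58.1 on log2(FPKM + 1) or log2(FPKM + 0.1), where fold changes of low genes are understated. KEGG lists, from a column of the FPKM table, were added after the data were seen. Some listed genes are not reported here by name.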

Additional observations from a re-analysis of the deposited data

How the results depend on the processing

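The 1031 genes called between Lip-1+MI and MI became 615 on log2(FPKM + 1) with no filter, 752 with one, 745 with a pseudocount of 0.1, 910 in the fit of the 6 samples and 1357 in DESeq2. The other scalings and filters gave 972 to 1121. Leaving out each sample in turn gave 661 to 1134 for this comparison, 304 to 552 for Lip-1+MI against Fer-1+MI, 569 to 1071 for Fer-1+MI against MI, 6412 to 7487 for MI against Sham and 5560 to 6705 for Lip-1+MI against Sham. Fewer samples enter such fits, and the cause of each shift was not tested. The labels do not say that replicate numbers pair the samples. Deviations of same-numbered samples correlated at -0.0236 to 0.0879 over 18 pairs. Among the ligated groups all same-numbered pairs were positive, from 0.00647 (Fer-1+MI 2 and Lip-1+MI 2) to 0.0879 (MI 1 and Fer-1+MI 1). Differently numbered pairs of these groups ran from -0.0708 (MI 1 and Fer-1+MI 2) to 0.0111 (Fer-1+MI 2 and Lip-1+MI 3). Deviations were taken from the group means, so positive same-numbered values pull the others down, and these ranges are not independent. Whether same-numbered ligated samples shared a batch was not tested. With the replicate block the counts were 1272, 676, 1152, 7631 and 6841 in the same order. Among 300 genes under 23 alternatives each, 6392 values kept their side of the threshold, 486 lost a call and 19 gained one. No value that was called in either fit changed sign, while estimates near 0 that were not called, such as those of Acta2 and Cdkn1a, did. Single genes were rerun for Lip-1+MI against MI alone. With 3 samples a group, small changes may be missed.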

Other observations

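Of 30 ER stress and ATF4 genes 8 fell and 1 rose, against 3.05% of all genes in each direction, with 2 falls without MI 3 or Lip-1+MI 3 and 4 without MI 1, Lip-1+MI 2 or on FPKM values with no filter. The rise, Sel1l (0.16 ± 0.044, adjusted p = 0.044), was lost in 16 of 23 alternatives, among them those without MI 1, MI 3 or any Lip-1+MI sample. Aldh18a1, which starts proline synthesis, was at 31.3, 30 and 30.5 CPM in MI and 20, 24.7 and 20.8 CPM in Lip-1+MI, with no overlap (-0.49 ± 0.10, adjusted p = 0.0058, lost on FPKM values with no filter). Phgdh, the first enzyme of serine synthesis, fell (-0.30 ± 0.066, adjusted p = 0.00979, lost without MI 3). Fer-1+MI against MI gave 7 falls, and the direct test gave 0 calls in either direction.

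Of 28 interferon response genes 3 rose (10.7%) and 1 fell (3.57%) in the fit of all 12 samples, against 3.05% of all genes in each direction. The rises were 5 in the fit of the 6 samples alone, 1 without MI 3, and 0 without MI 1 or Lip-1+MI 1 or on FPKM values with no filter. The fall, Bst2 (-0.33 ± 0.095, adjusted p = 0.0464), was lost in 10 of 23 alternatives, among them those without MI 2, MI 3 or any Lip-1+MI sample. Ifit3, an antiviral effector, had a log2 fold change of 0.67 ± 0.16 (adjusted p = 0.0162). Egr1, an immediate early factor, rose by 0.67 ± 0.081 (adjusted p = 0.000161), with levels of 137, 176 and 164 CPM in MI and 245, 237 and 276 CPM in Lip-1+MI. Nr1d1, a circadian repressor whose model overlaps Thra, fell (-0.50 ± 0.095, adjusted p = 0.00358). The mesothelial keratin Krt8 fell (-0.45 ± 0.093, adjusted p = 0.00557).

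Broader KEGG lists gave 12 of 19 steroid biosynthesis genes higher and 0 lower, 41 of 117 lysosome genes higher and 0 lower, and 6 of 36 DNA replication genes lower and 0 higher. KEGG cell cycle genes gave 17 of 119 lower (14.3%) and 2 higher (1.68%), against 3.05% of all genes in each direction. Of 39 KEGG ferroptosis genes, 11 were higher (28.2%) and 3 lower (7.69%). Of these, 6 were higher without MI 3, 7 without Lip-1+MI 2 or Lip-1+MI 3, and 1 was lower on FPKM values. PPAR signalling genes split into 10 higher and 10 lower of 64, with 6 higher without Lip-1+MI 2, 4 lower without Lip-1+MI 1, 4 to 6 lower on FPKM values and 6 lower without MI 3 or Lip-1+MI 3.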
